A study of Homo sapiens with 6 samples.

Results

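The heat shock protein and BAG genes of HCT116 cells were compared between cultures labelled as miR-196b overexpressers and empty-vector controls. Members were the probe sets whose platform gene symbol begins as a proteasome subunit (PSMA to PSMG), a heat shock protein (HSP), a J-domain protein (DNAJA to DNAJC), a subunit of the chaperonin TRiC, or is a BAG gene, without the endoplasmic reticulum chaperones HSPA5, HSP90B1, DNAJB9 and DNAJC3 and without antisense and pseudogene symbols. The rule uses no measured value. The search ran over the 16098 probe sets (14884 genes) paired with 1 gene symbol, called named probe sets below. The rule matched 47 of them, of which 8 antisense probe sets and 1 pseudogene were left out. This kept 38 probe sets of 25 genes. These held 32 HSP probe sets (19 genes), 5 BAG probe sets (5 genes) and 1 symbol beginning PSM. The 7 matched PSM probe sets were 6 antisense transcripts and PSMC3IP, and the 2 matched DNAJ probe sets were both antisense, so proteasome subunits with a PSM symbol, J-domain proteins, HSP90 and TRiC were not analysed here. The members are therefore called heat shock and BAG genes below and not proteasome genes. PSMC3IP, a partner of the meiotic recombinases, HSPG2, the basement membrane proteoglycan perlecan, and the readthrough transcript HSPB2-C11orf52 were matched by their letters and are no chaperone genes.

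HSP70 proteins hold unfolded stretches of protein in a cycle driven by ATP. HSP110 proteins and BAG proteins speed the release of their nucleotide, and small heat shock proteins bind unfolding proteins without ATP and pass them on. Clients that cannot be refolded are handed to the proteasome or to autophagy, and the transcription factor HSF1 raises the inducible members when unfolded protein builds up. Tumour cells often depend on these proteins, and HSPB1 and the inducible HSP70 are often abundant in colorectal carcinoma cells.

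HCT116 is an established human colorectal carcinoma line; the sample titles spell it HTC116 and the growth protocol HCT116. Both groups were stably transduced, the first (3 arrays) to overexpress miR-196b and the second (3 arrays) with an empty vector as the control. The sample titles of the first group write the microRNA with a digit in place of the final letter b. Per the labels the 3 arrays of each group are biological replicates. Separate transductions, and whether a line is a clone, are not stated, so p-values cover the spread among cultures of what may be a single line. The microRNA named by the labels differs from its relative miR-196a by the single substitution C12A (miR-196b base, position from the 5′ end, miR-196a base). Both mature sequences are shown because the labels name miR-196b and the array has probe sets for the precursors of both, with the seed, bases 2 to 8, in capitals (RefSeq, GRCh38.p14). MIR196B lies at chr7:27169528-27169549 on the minus strand and MIR196A2 at chr12:53991762-53991783 on the plus strand.
hsa-miR-196b-5p: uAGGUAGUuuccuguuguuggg
hsa-miR-196a-5p: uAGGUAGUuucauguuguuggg

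The probe set of the MIR196B precursor had a log2 change of 0.08 (95% interval -0.16 to 0.31), arrays labelled miR-196b minus control, while MIR196A2 was 7.55 higher on the log2 scale (SE 0.12, limma adjusted p = 4.53e-07). MIR196A1, the other precursor of miR-196a, had a log2 change of -0.27 (95% interval -0.66 to 0.12) with overlapping groups. None of these probe sets reads the mature microRNA, and the groups are called by their labels throughout. Of the epithelial markers looked at, EPCAM was at 10.9 ± 0.0793 in labelled arrays and 11.0 ± 0.104 in control arrays (log2, SD, n = 3 each), with overlapping groups. The groups did not overlap at CDX2 (log2 change -0.26), at 1 of the 2 KRT18 probe sets (-0.22) and at CLDN4 (0.28), and no marker passed the test (limma adjusted p = 0.405 or above). The mean log2 level over the epithelial list (7 of 8 genes measured) was 7.98 to 8.12 in labelled and 8.10 to 8.13 in control arrays. For the fibroblast list (3 of 6 genes), whose LUM and DCN lay in the dimmest 40% of probe sets, it was 3.06 to 3.22 in labelled and 3.08 to 3.20 in control arrays. LUM had a log2 change of 0.18 without overlap, and the groups overlapped at DCN and THY1. For the blood cell list (2 of 6 genes, CD68 and CSF1R) it was 5.75 to 6.11 in labelled and 5.83 to 5.89 in control arrays, and CSF1R, in the dimmest 40%, had a log2 change of 0.31 without overlap. Over all named probe sets, 10.0% were higher and 7.18% lower in labelled arrays without overlap. The part of other cells in the results was not tested.

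The fitted changes of the heat shock and BAG genes were small, and equality of the groups was not tested. None of the 38 probe sets passed the test across all named probe sets (limma adjusted p = 0.459 to 0.979), where 0.0559% of the 16098 passed. Log2 changes ran from -0.21 to 0.23, with a median of -0.08, beside a median of 0.01 over all named probe sets. The 95% intervals of all 38 members lay between -0.44 and 0.54, so the widest bound on any change was 1.46-fold, and 37 of the 38 were bounded below 1.4-fold. A missed threshold does not show equal levels, and with 3 arrays a group changes inside these intervals are not excluded.

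At an unadjusted p below 0.05, 0 members were higher and 1 was lower, against 5.73% and 4.14% of all named probe sets. The groups did not overlap at 2 members that were higher and 3 that were lower in labelled arrays, against 10.0% and 7.18% of all named probe sets. Both counts were close to or below those shares. These 5 are described with their families below. Where the groups did not overlap, an exact permutation test (two-sided) gave p = 0.1, its floor with 3 arrays a group.

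**Figure D1:**
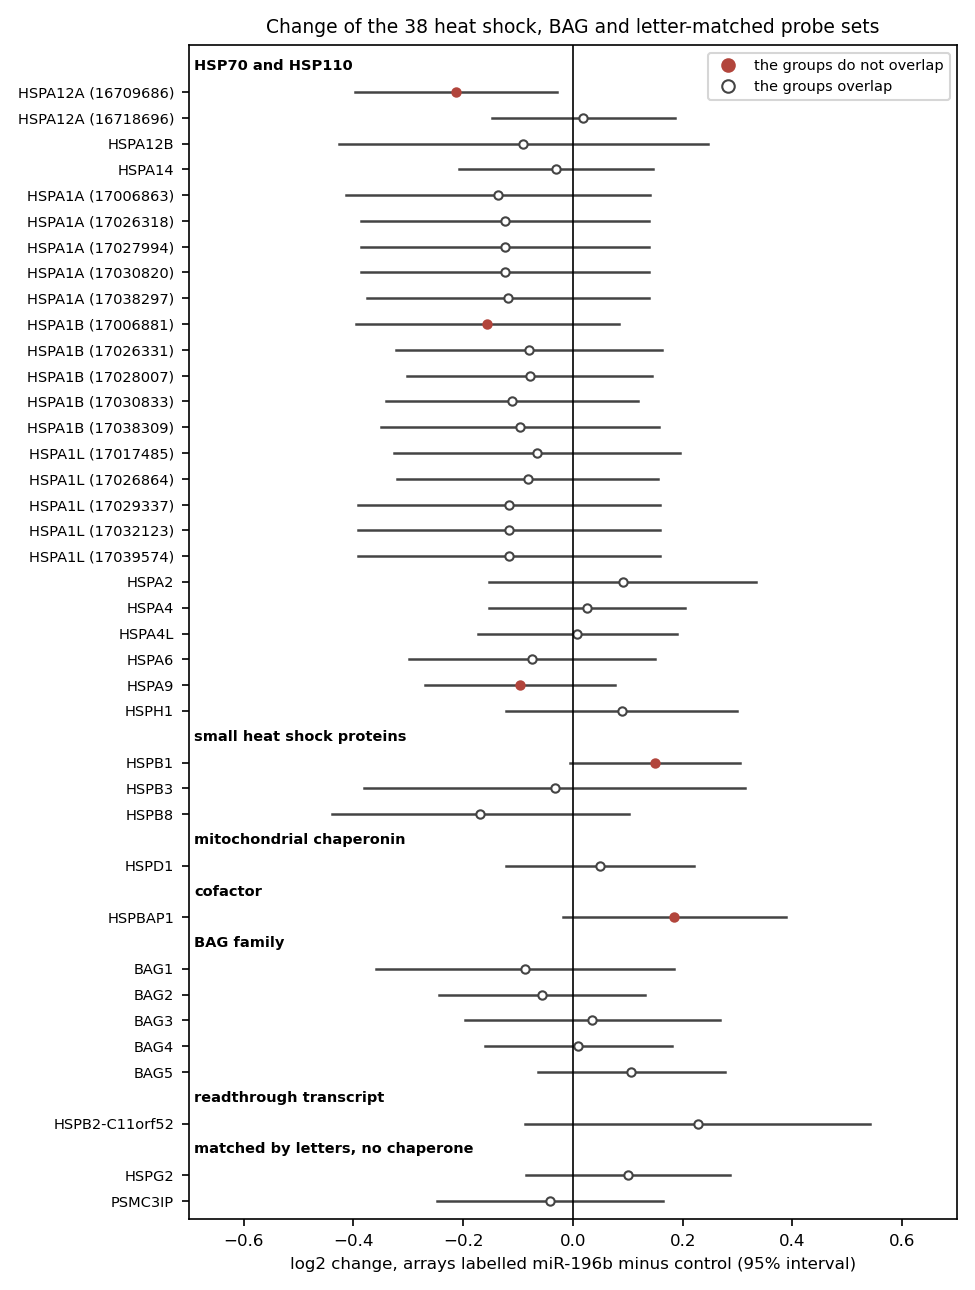
Log2 change (arrays labelled miR-196b minus control, x axis) with its 95% interval from limma for the 38 probe sets, by family; numbers in brackets are probe set names, filled points mark groups that do not overlap. All intervals lie between -0.44 and 0.54, and 5 points are filled.

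Among the ATP-independent small heat shock proteins, HSPB1 (HSP27), which caps unfolding proteins and actin filaments, had the clearest separation. Its levels were 12.42, 12.42 and 12.44 in labelled arrays, against 12.30, 12.26 and 12.28 in control arrays (log2). All 3 labelled arrays lay above all 3 control arrays, by more than the spread within either group. The log2 change was 0.15 with an SE of 0.07 and a 95% interval of -0.00 to 0.31, or 1.11-fold, and did not pass (limma adjusted p = 0.507). With a trended, robust variance prior its adjusted p was 0.0775, the lowest over all the alternatives tried, which ranged up to 0.727.

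HSPBAP1, a protein found as a partner of HSPB1, was at 7.38, 7.58 and 7.58 in labelled arrays, against 7.25, 7.37 and 7.37 in control arrays (log2). The lowest labelled array lay just above the highest control array. This was a log2 change of 0.18 (SE 0.09, limma adjusted p = 0.527). HSPB8, which works with BAG3 in chaperone-assisted autophagy, was at 3.64, 3.67 and 3.67 in labelled arrays, against 4.06, 3.63 and 3.80 in control arrays. Control replicate 1 stood above the other 5 arrays, and the groups overlapped (log2 change -0.17, 95% interval -0.44 to 0.10). HSPB3, a small heat shock protein of muscle, had a log2 change of -0.03. HSPB3 and HSPB8 lay in the dimmest 40% of named probe sets, below a log2 level of 4.86, where little signal can be told from background. HSPB2-C11orf52, also in that range, had the largest log2 change of all members, 0.23, and the widest interval (-0.09 to 0.54).

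The HSP70 and HSP110 family gave 25 probe sets of 12 genes, 5 with a log2 change above 0 and 20 below it, with a median of -0.10. Without labelled replicate 3 that median was -0.00. Of these 25 probe sets, 15 belong to HSPA1A, HSPA1B and HSPA1L, neighbours in the major histocompatibility complex on chromosome 6 that the array covers 5 times each. Without these 3 genes the family had 10 probe sets, 5 above 0 and 5 below it, with a median of -0.01. HSPA1A and HSPA1B encode nearly the same protein, the stress-inducible HSP70, and HSPA1L is their testis-enriched relative. Transcripts of one copy can bind probes of another, so their values are uncertain as measures of a single gene. Some of their probe sets repeat each other: 3 probe sets of HSPA1A held identical values, as did 3 of HSPA1L, leaving 11 distinct sets of values among the 15.

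Labelled replicate 3 was the lowest array at these genes, and stood apart at HSPA1A and HSPA1B. The 5 HSPA1A probe sets were lower in that array than in any of the other 5, by 0.32 to 0.35 on the log2 scale, while the other 5 arrays spanned 0.06 to 0.09. At the HSPA1A probe set 17006863 the levels were 10.55, 10.57 and 10.17 in labelled arrays, against 10.52, 10.56 and 10.62 in control arrays (log2). Labelled replicates 1 and 2 thus lay within the range of the control arrays there. The HSPA1B probe sets were lower in labelled replicate 3 than in any other array by 0.22 to 0.31, with the other 5 arrays spanning 0.07 to 0.16. HSPA1L was lower by 0.14 to 0.17, with the other 5 arrays spanning 0.19 to 0.28.

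Labelled replicate 3 was the lowest of the 6 arrays at 15 of these 15 probe sets and at 3 of the 23 other members, against 18.7% of all named probe sets. It was also the lowest at 5 of 9 probe sets of prefoldin and TRiC helpers, 4 of 9 of cochaperones, 5 of 15 of proteasome partners, 1 of 4 of the ubiquitin supply, 0 of 4 of heat shock factors and 3 of 8 of epithelial markers. This was noticed after the values were seen, and the 15 are not independent. With all arrays the 15 probe sets had log2 changes of -0.16 to -0.07 and none passed (limma adjusted p = 0.642 to 0.866). Without labelled replicate 3 the log2 changes were -0.01 to -0.00 for HSPA1A, -0.05 to 0.01 for HSPA1B and -0.02 to 0.04 for HSPA1L (limma adjusted p = 0.873 or above). At HSPA1B probe set 17006881, 1 of the 3 members with lower, non-overlapping groups, the levels were 11.04, 11.04 and 10.73 in labelled arrays, against 11.12, 11.05 and 11.11 in control arrays.

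**Figure D2:**
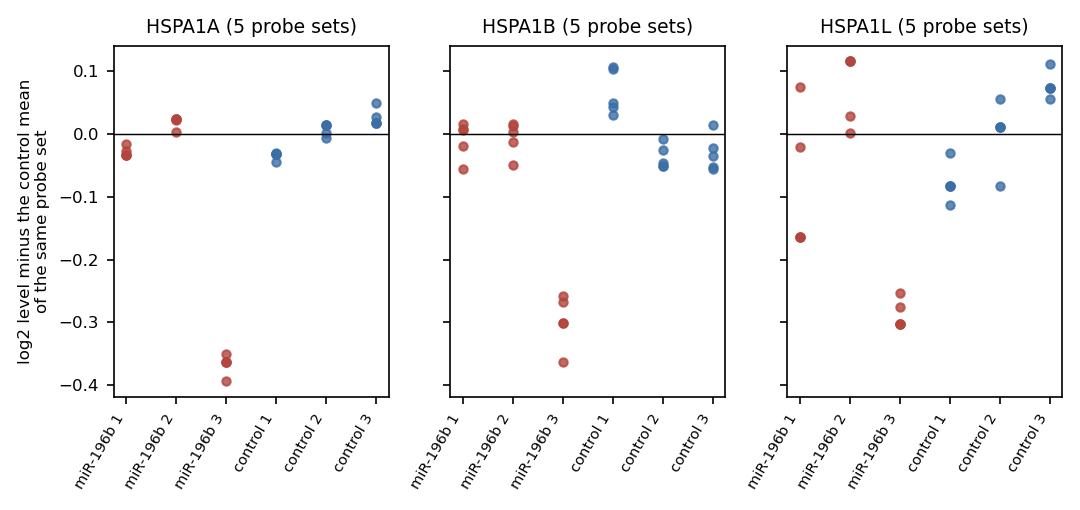
Log2 level of each probe set minus its mean over the control arrays (y axis) in each of the 6 arrays (x axis), for HSPA1A, HSPA1B and HSPA1L with 5 probe sets each; points of identical probe sets coincide. Labelled replicate 3 lies below the other 5 arrays at all 15 probe sets.

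The upstream sequences of these neighbours are shown because the genes were low in the same array. A link between the sequences and the levels in that array was not tested. Per RefSeq (GRCh38.p14), HSPA1L starts at chr6:31815283 on the minus strand and HSPA1A 260 bases away at chr6:31815543 on the plus strand, so that they face away from each other, and their 250-base upstream windows share 241 bases. HSPA1B starts 12195 bases further on, on the plus strand, and the 250 bases upstream of HSPA1A and HSPA1B are 93.6% identical (235 of 251 aligned positions). HSF1 binds arrays of inverted GAA units, and matches to GAANNTTC or TTCNNGAA, each its own reverse complement, are in capitals. Bases -150 to -51 from the start follow for HSPA1A (chr6:31815393-31815492, plus strand) and HSPA1B (chr6:31827588-31827687, plus strand).
HSPA1A: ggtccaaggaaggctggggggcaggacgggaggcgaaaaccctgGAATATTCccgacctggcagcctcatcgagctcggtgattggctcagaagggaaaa
HSPA1B: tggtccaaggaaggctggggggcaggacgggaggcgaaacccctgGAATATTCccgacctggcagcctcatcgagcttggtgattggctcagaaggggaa

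The same match, at chr6:31815437-31815444, lies in the upstream windows of both HSPA1A and HSPA1L. For comparison, matches upstream of inducible members on other chromosomes are given for HSPA6 (chr1:161524430-161524489, plus strand), HSPB1 (chr7:76302463-76302522, plus strand) and HSPD1 (chr2:197500041-197500090, minus strand).
HSPA6: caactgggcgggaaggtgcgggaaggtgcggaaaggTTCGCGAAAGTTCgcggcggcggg
HSPB1: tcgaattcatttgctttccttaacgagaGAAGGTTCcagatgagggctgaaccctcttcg
HSPD1: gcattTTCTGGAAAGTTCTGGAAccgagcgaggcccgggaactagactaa

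In HSPA6 and HSPD1 the matches of both motifs overlap and form runs of more than 2 units. Of the 25 member genes, 21 had an upstream sequence here, in 27 windows of 250 bases. GAANNTTC was found in 10 of the 27 windows (9 of the 21 genes) and in 5.78% of 35116 windows of all genes, and TTCNNGAA in 4 of the 27 and in 6.62% of all. The 10 count the match shared by HSPA1A and HSPA1L for each of them, and 2 windows of PSMC3IP, which is no chaperone. A match is a description of letters and not of a bound site.

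HSPA6, the HSP70 gene that is nearly silent without stress, was at 4.30, 4.53 and 4.42 in labelled arrays, against 4.62, 4.46 and 4.40 in control arrays (log2). The groups overlapped, in the dimmest 40% of named probe sets (log2 change -0.07, 95% interval -0.30 to 0.15). HSPH1, an inducible HSP110, was at 11.05, 11.19 and 10.95 in labelled arrays, against 10.90, 10.99 and 11.05 in control arrays. Its groups also overlapped, with a log2 change of 0.09 (95% interval -0.12 to 0.30). Of the 12 genes fixed as heat-inducible, 7 were measured (15 probe sets), with 0 passing the test and log2 changes of -0.16 to 0.15.

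The HSP110 genes HSPA4 and HSPA4L, exchange factors of HSP70, had log2 changes of 0.03 and 0.01, with bounds of 1.15-fold and 1.14-fold. HSPA9 (mortalin), the HSP70 of the mitochondrial matrix, was at 12.13 and 12.14 in labelled replicates 2 and 3 and lower in labelled replicate 1, with a mean of 12.1 ± 0.0760 over the 3, against 12.16, 12.19 and 12.20 in control arrays (log2, SD). All 3 labelled arrays lay below the controls, 2 of them only just. The log2 change was -0.10 (SE 0.07, limma adjusted p = 0.690). HSPD1 (HSP60), the chaperonin of the same compartment, was at 9.80, 9.92 and 9.82 in labelled arrays, against 9.76, 9.79 and 9.84 in control arrays. The groups overlapped (log2 change 0.05, 95% interval -0.12 to 0.22). Both of these members are mitochondrial and not cytosolic.

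Among the remaining HSP70 genes, the distant relative HSPA12A had 2 probe sets that disagreed. At the dimmer one (16709686) the levels were 4.14, 4.05 and 4.21 in labelled arrays, against 4.28, 4.38 and 4.38 in control arrays (log2). This was the only member with an unadjusted p below 0.05 (0.0286), with a log2 change of -0.21 (SE 0.08, limma adjusted p = 0.459). The other probe set (16718696) was at 7.34 ± 0.0621 in labelled and 7.32 ± 0.0226 in control arrays (SD, n = 3 each), a log2 change of 0.02. The groups overlapped at HSPA12B (-0.09), at HSPA14 (-0.03), a ribosome-associated HSP70, and at the testis-enriched HSPA2 (0.09).

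The BAG proteins, which bind the ATPase domain of HSP70 and bring its clients to other machinery, gave 5 probe sets with log2 changes of -0.09 to 0.11 and a median of 0.01. The groups overlapped at all 5. BAG3, the stress-inducible member that acts with HSPB8, was at 8.63, 8.63 and 8.52 in labelled arrays, against 8.38, 8.70 and 8.59 in control arrays (log2 change 0.04, 95% interval -0.20 to 0.27). BAG5 was at 7.74, 7.71 and 7.62 in labelled arrays, against 7.57, 7.55 and 7.63 in control arrays (log2 change 0.11, limma adjusted p = 0.650). Control replicate 3 and labelled replicate 3 were close to each other there. BAG1, which links HSP70 to the proteasome, had a log2 change of -0.09, BAG2, an inhibitor of the ubiquitin ligase CHIP, -0.06, and BAG4, first known as a silencer of death receptors, 0.01. Of the letter-matched genes, HSPG2 had 0.10 and PSMC3IP -0.04.

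**Figure D3:**
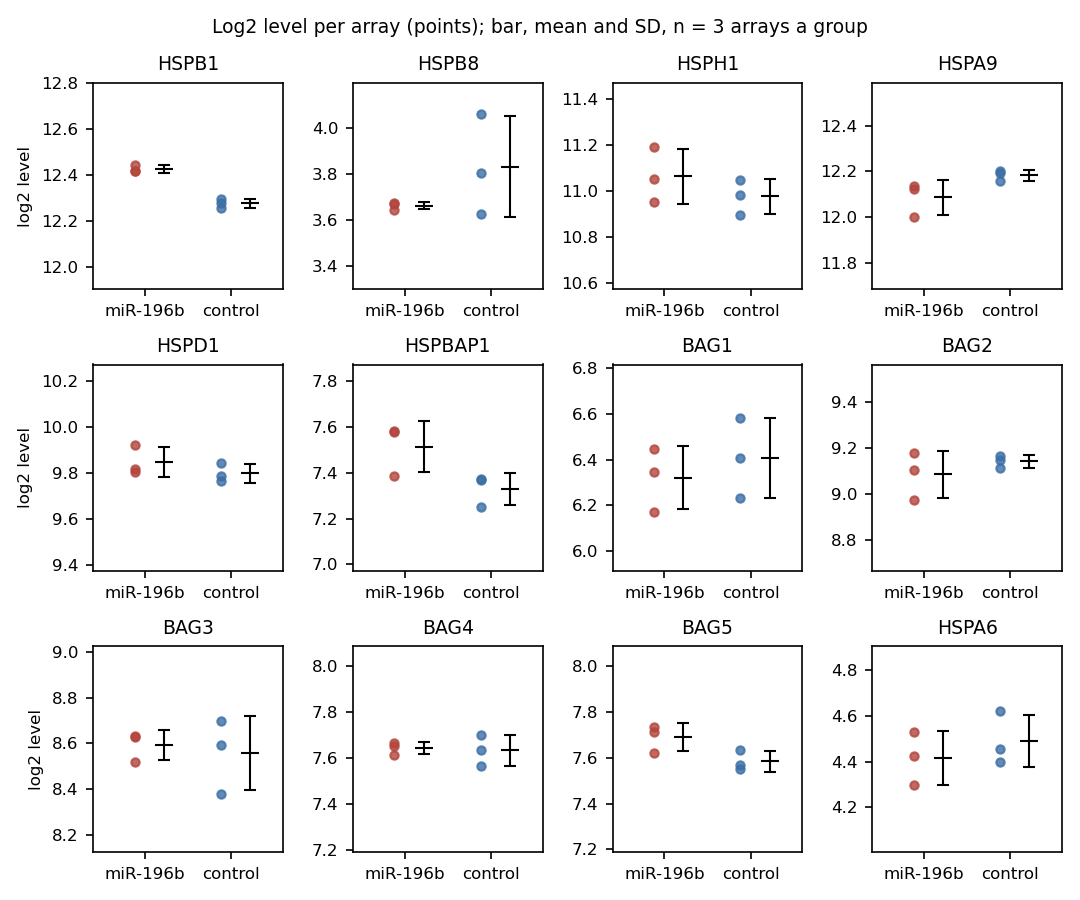
Log2 level of 12 members with a single probe set (y axis; each panel spans 0.9 log2 units) in the 3 arrays labelled miR-196b (left) and the 3 control arrays (right); bars give mean and SD, n = 3. The groups do not overlap at HSPB1, HSPBAP1 and HSPA9, and overlap at the other 9.

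Other genes of the pathway were counted over whole lists, and the genes named first from each list are those with its smallest p. Of 19 partners of the proteasome, 14 were measured at 15 probe sets, with 6 log2 changes above 0 and 9 below it, a median of -0.01 and 0 passing. NGLY1, which activates the proteasome's transcription factor NFE2L1, had a log2 change of 0.20 (limma adjusted p = 0.572), and UBQLN4, a shuttle for ubiquitinated proteins, -0.12 (0.616). The list also holds the proteasome subunits SEM1 and ADRM1, a receptor for ubiquitin, whose symbols the rule does not match. ADRM1 was at 9.95, 9.89 and 9.79 in labelled arrays, against 9.91, 9.93 and 9.97 in control arrays (log2 change -0.06, 95% interval -0.24 to 0.11), and the groups overlapped. The 2 SEM1 probe sets had log2 changes of -0.22 and -0.01, the first with the list's widest interval (-0.80 to 0.36). NFE2L1 had a log2 change of 0.00 and POMP, which assembles the core particle, -0.11. These 4 genes were likewise picked with their values in view. Of 7 genes of the ubiquitin supply 4 were measured and 0 passed, with 0.09 for the polyubiquitin gene UBB and 0.07 for the activating enzyme UBA6. The partner genes do not stand in for the subunits with a PSM symbol.

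Of 15 cochaperones of HSP70 and HSP90, 8 were measured and 0 passed (median -0.04). CDC37, which brings kinases to HSP90, was at 9.99, 9.97 and 9.84 in labelled arrays, against 10.10, 10.03 and 10.12 in control arrays (log2). The groups did not overlap (log2 change -0.14, limma adjusted p = 0.576). They also did not overlap at PTGES3 probe set 16766283 (-0.08), but overlapped at PTGES3 probe set 17117571 (-0.15). Lower without overlap were thus 2 of 9 cochaperone probe sets, against 7.18% of all named probe sets. The inducible cochaperone CHORDC1 had 0.15 (limma adjusted p = 0.578). HSF1 was at 8.51, 8.52 and 8.66 in labelled arrays, against 8.67, 8.68 and 8.69 in control arrays. All 3 labelled arrays lay below all 3 control arrays, labelled replicate 3 only just (log2 change -0.11, SE 0.07, limma adjusted p = 0.642). HSF4 had 0.12 and -0.06 at its probe sets.

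Prefoldin hands unfolded actin and tubulin to TRiC. A list of 9 genes held 6 prefoldin subunits (PFDN1, PFDN2, PFDN4, PFDN5, PFDN6 and VBP1) and the TRiC helpers PDCL, PDCL3 and TXNDC9. All 9 were measured, 7 with a log2 change below 0 and 2 above it, with a median of -0.06 and 0 passing. PFDN5 was at 6.83, 6.84 and 6.83 in labelled arrays, against 7.11, 7.06 and 7.11 in control arrays (log2). Its arrays lay closely together within each group and apart between them, with a log2 change of -0.26, an SE of 0.07 and a 95% interval of -0.42 to -0.11 (limma adjusted p = 0.359). PFDN6 was at 7.43, 7.42 and 7.41 in labelled arrays, against 7.53, 7.61 and 7.64 in control arrays (log2 change -0.17, limma adjusted p = 0.491). The groups did not overlap at either gene, nor at PFDN2 (-0.14). PFDN1, PFDN4 and VBP1 had log2 changes of -0.00, -0.03 and 0.01 with overlapping groups. The groups also overlapped at PDCL3 (-0.25, 95% interval -0.66 to 0.15), PDCL (-0.06) and TXNDC9 (0.01). PFDN5 and PFDN6 were named for the 2 smallest p of the list, and the other genes were chosen with their values known. At an unadjusted p below 0.05, 2 of the 9 were lower and 0 higher, against 4.14% and 5.73% of all named probe sets, and the groups did not overlap at 3 lower and 0 higher, against 7.18% and 10.0%. At that p, 0 probe sets were higher or lower among proteasome partners, the ubiquitin supply, cochaperones or heat shock factors. The groups did not overlap at 2 higher and 1 lower of 15 probe sets of proteasome partners. For the ubiquitin supply these were 1 and 0 of 4, for cochaperones 0 and 2 of 9, and for heat shock factors 0 and 1 of 4.

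**Figure D4:**
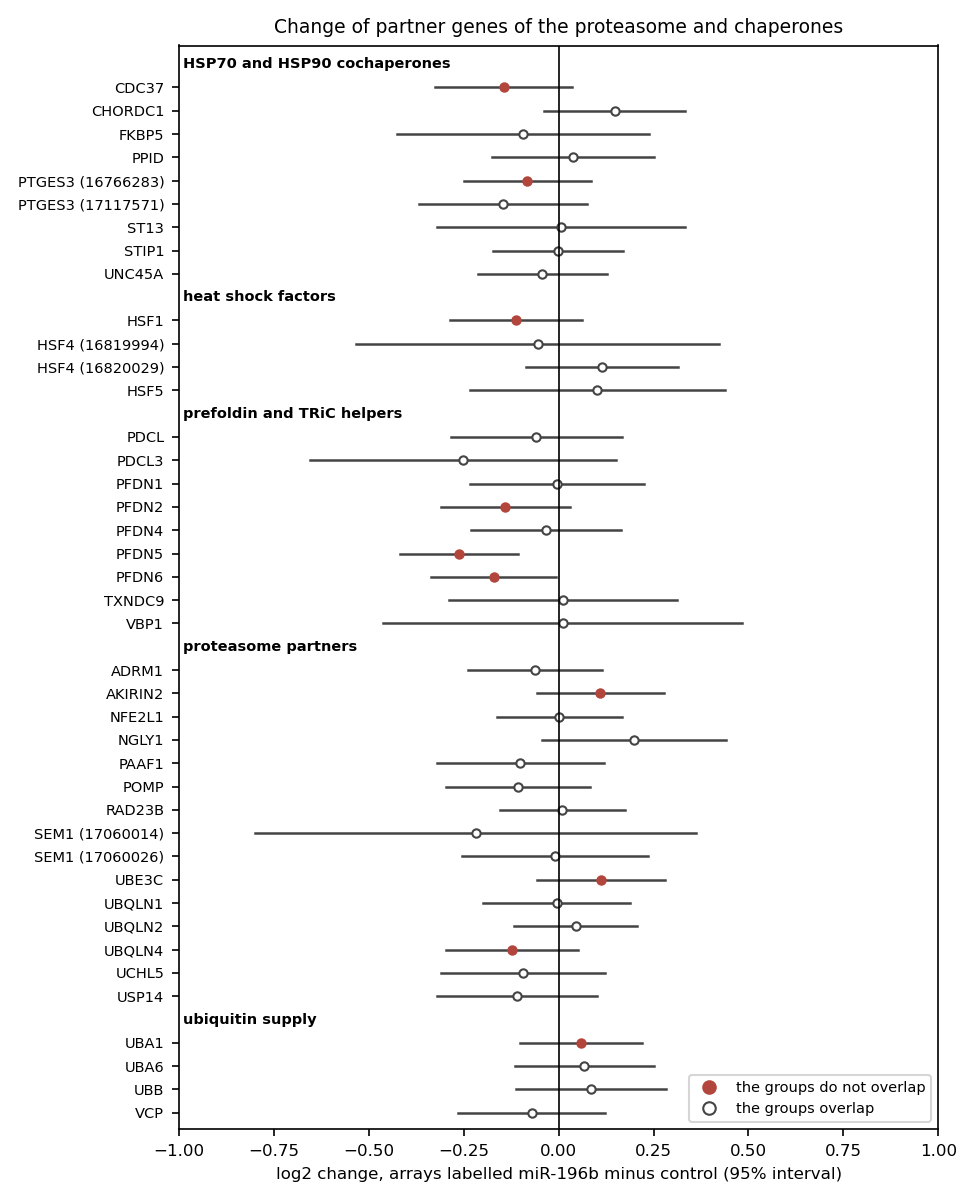
Log2 change (arrays labelled miR-196b minus control, x axis) with its 95% interval from limma for the measured partner genes, by list; filled points mark groups that do not overlap. No gene passed the test, and PFDN5 and PFDN6 are the 2 genes whose interval lies below 0.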

How the data were processed

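Per the labels' protocols, total RNA of 6 cultures was hybridised to whole-transcript arrays, 1 each, giving values for 53617 probe sets. The authors deposited processed log2 values, read as log2 from their range. The submitters' processing notes list Partek 6.6 and RMA; the options and a genome build are not given in the sources used here. RMA as usually run makes the arrays' distributions alike, so a shift common to all genes could not be seen. Arrays had medians of 4.34 to 4.37, and their number limits the precision.

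Genes were named through the platform annotation, with symbols updated by gene identifier (GRCh38.p14). Only probe sets paired with 1 gene symbol were kept as named. Those with no symbol or with more than 1 entered no count. In R 4.3.3, limma 3.58.1 (lmFit, eBayes, no trend) fitted the 16098 named probe sets with no filter, and p-values were adjusted by Benjamini-Hochberg at 0.05. The script was tested on simulated data. The members, lists and tests were chosen with earlier results of these data known. Named genes were fixed stress and catalytic genes, the 3 smallest p of each family, the brightest and the dimmest member (HSPB1, HSPB3), and the 2 smallest of each partner list, plus HSF1; the other members are given to account for all. The tables used pair no array with a scan date, so no batch was tested. Same-numbered arrays deviated together at r = 0.0085 to 0.037 over named probe sets, so the numbers were not taken as pairs.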

Additional observations from a re-analysis of the deposited data

How the results depend on the processing

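The alternatives were a filter on the dimmest 40% of probe sets, a trended and robust variance prior, no variance moderation, subtracted array medians, a repeated quantile normalization, array weights, a replicate block, each array left out, all probe sets tested, and probe sets averaged by gene. Under all of them 0 members passed the adjusted threshold, as with identical values counted as 1 and without HSPG2, PSMC3IP and the readthrough transcript, which were added after the data were seen. The lowest adjusted p over 49 single results was 0.0775 (HSPB1, trended prior). Members higher at an unadjusted p below 0.05, 0 in the fit above, were 2 without the dimmest probe sets and with the trended prior, and 1 without moderation or with repeated quantile normalization. Members lower at that p, 1 above, were 0 without the dimmest probe sets, with the replicate block, with all probe sets tested and with gene means. With gene means, non-overlapping lower members were 1 of 25 genes in place of 3 of 38 probe sets. With an array left out, unadjusted counts ran from 0 to 1 higher and from 0 to 3 lower. Non-overlapping counts ran from 2 to 5 higher and from 3 to 9 lower. Shares over all named probe sets are not given for these fits, and with fewer arrays groups separate more easily. The higher count of 5 came without labelled replicate 3 and without control replicate 3. The lower count of 9 and the 3 lower at the unadjusted p came without labelled replicate 2. Of these 9, 3 were HSPA1A probe sets with identical values and 3 were HSPA1L probe sets with identical values. The rest were HSPA1B probe set 17006881, HSPA12A probe set 16709686 and HSPA9. The medians that moved beyond the spread between arrays were those of the small heat shock proteins without the dimmest probe sets (0.15, HSPB1 alone) and of the BAG genes without control replicate 1 (-0.05). With an array left out, the HSP70 and HSP110 median ran from -0.14 without labelled replicate 2 to -0.00 without labelled replicate 3, against -0.10 with all arrays. The replicate block left 0 members past the adjusted threshold, and the loss of that 1 unadjusted call (HSPA12A) was the only count of members it moved by over 1.5 times. No member had a call, so none had a direction to reverse.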
